A study of Capra hircus with 36 samples.

Results

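The miR-26 family was taken as every mature miRNA listed under the goat names miR-26a, miR-26b or miR-26c, on either arm of the hairpin and with or without the prefix "conserve-", which marks a miRNA known from another mammal. The rule found 5 of the 1391 mature miRNAs: chi-miR-26a-5p, chi-miR-26b-5p, chi-miR-26b-3p, chi-miR-26a-3p and conserve-chi-miR-26b-5p, written below without chi, the prefix for goat. No row carried the name miR-26c. Small RNA was sequenced from 6 tissues (spleen, longissimus muscle, lung, heart, liver and kidney) of adult female goats, 3 Tibetan Goats living at 3000 m (the high-altitude group) and 3 Chuandong White Goats living at 600 m (the low-altitude group), all given as older than 3 years. Each goat gave every tissue, so the 36 libraries form 12 groups of 3. Goats 1 to 3 below are the numbers in the sample labels. The same number was taken as the same goat in every tissue of a population, which the labels do not state. Altitude and population are the same split in this design and cannot be told apart.

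The miR-26 genes lie in introns of the CTDSP genes, which encode small phosphatases of the RNA polymerase II tail, and are transcribed with these hosts. The 5p arms of miR-26a and miR-26b share their seed and so largely their targets, among them EZH2, the methyltransferase of the Polycomb complex, and regulators of the cell cycle. The family is abundant in most differentiated mammalian tissues, and hypoxia has been reported to raise it in cultured cells. In the RefSeq gene table of the goat assembly ARS1.2, MIR26A lies within CTDSPL and MIR26B within CTDSP1, whereas CTDSP2 is listed with no miR-26 gene inside it.

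The libraries held 7108635 to 14407748 counts on mature miRNAs, and levels are given as RPM, the count scaled to that total. At these totals, 3 counts amount to 0.208 to 0.422 RPM. Most miRNAs that mark a tissue were highest where the labels placed them, but miR-194-5p, taken as a kidney marker, was highest in liver (16948 RPM against 2568 RPM in kidney), and the leukocyte miRNA miR-223-3p in lung (394 RPM against 371 RPM in spleen). miR-208b-3p, encoded in a myosin gene of the heart, averaged 13405 RPM in heart and 1724 RPM in muscle, the next tissue. The hepatocyte miRNA miR-122-5p averaged 50587 RPM in liver (6118 to 179917 RPM in the high-altitude and 20257 to 53506 RPM in the low-altitude goats) against 81.3 RPM in kidney, and miR-34c-5p, of ciliated airway cells, 5608 RPM in lung against 22.4 RPM in liver. The muscle miRNA miR-206-3p averaged 1633 RPM in muscle, the leukocyte miRNA miR-142-3p 4004 RPM in spleen, and miR-10b-5p 314594 RPM in kidney, with 103059 RPM in muscle.

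By counts, the family was dominated by miR-26a-5p. Over the 36 libraries it took 45222254 of the counts, which is 94.98% of the family and 11.9% of everything counted. miR-26b-5p added 2383362 counts, or 5.01% of the family. The remaining members were rare: miR-26b-3p had 5969 counts in all, miR-26a-3p 421, and conserve-miR-26b-5p 14. The 5 members together made up 12.8% ± 4.53 (SD, n = 36) of a library, from 5.36% in a low-altitude spleen to 25.0% in a high-altitude lung.

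By tissue, the family took 18.1% ± 3.73 (SD, n = 6) of the counts in lung and 17.4% ± 2.66 in liver. Heart followed with 11.8% ± 1.86, and spleen with 10.2% ± 3.16, kidney with 9.83% ± 3.36 and muscle with 9.41% ± 2.33 lay close together. Every share is one of a closed total, so it also moves with the other abundant miRNAs. In bulk tissue, a lower level can come from fewer cells that express a miRNA or from less of it per cell, and these cannot be told apart.

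miR-26a-5p, the member with the most counts, was read in every library. In heart, the high-altitude goats 1, 2 and 3 had 120024, 141315 and 114193 RPM and the low-altitude goats 1, 2 and 3 had 109789, 105831 and 92408 RPM. In liver, the values were 158693, 136087 and 128171 RPM in the high-altitude goats and 171313, 200092 and 188814 RPM in the low-altitude goats. Of miRNAs averaging at least 10 RPM in the tissue, 34.7% in heart and 20.8% in liver separated the altitudes in either direction on the RPM scale. For miR-26a-5p the altitudes did not overlap in either tissue, and their order was opposite. The higher values were at high altitude in heart and at low altitude in liver. Neither separation held on TMM-scaled totals (scaling explained below, a comparison chosen after seeing the data), where heart had 119446 to 160403 at high and 126158 to 171496 at low altitude, with the higher mean at low altitude, and liver 89812 to 147008 and 123116 to 142075.

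In lung, miR-26a-5p stood at 170931, 238925 and 138643 RPM in the high-altitude goats and at 148930, 169010 and 176553 RPM in the low-altitude goats. In kidney, it stood at 81698, 133314 and 70084 RPM at high altitude and at 62777, 79348 and 123972 RPM at low altitude. The altitudes overlapped in both tissues. On TMM-scaled totals every high-altitude goat was above every low-altitude goat in lung (117887 to 185932 against 106105 to 107928). On the RPM scale, 20.1% of miRNAs averaging at least 10 RPM in lung separated the altitudes in either direction. That share was not counted on TMM-scaled totals. In muscle, the high-altitude goats had 112677, 75670 and 122666 RPM and the low-altitude goats 85356, 85942 and 60691 RPM. In spleen, the high-altitude goats had 82644, 124931 and 119673 RPM and the low-altitude goats 112261, 48889 and 78981 RPM. In muscle and spleen the high-altitude values were mostly the higher ones, but the altitudes overlapped. Counting error is small beside these differences, since the widest Wilson 95% interval of the miR-26a-5p share spanned 0.0588 percentage points in a library. Such intervals and floors cover counting error only, because PCR copies of a molecule were not told apart.

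**Figure D1:**
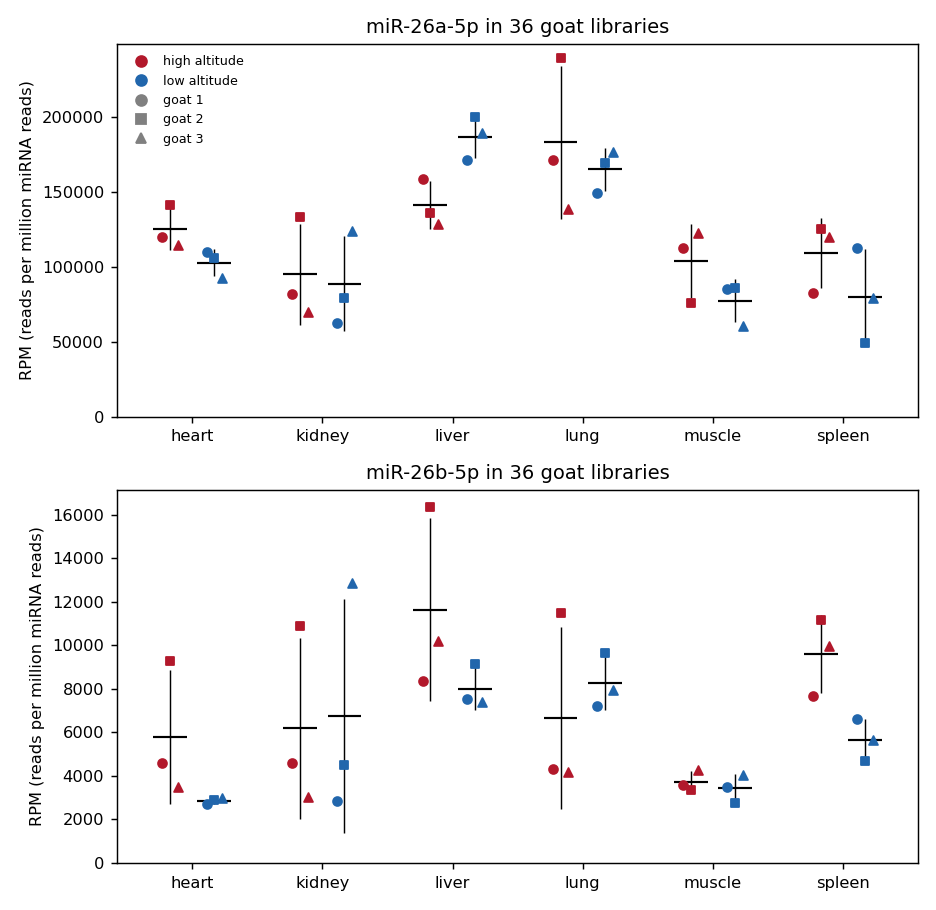
RPM of miR-26a-5p (top) and miR-26b-5p (bottom) in each of the 36 libraries, by tissue on the horizontal axis, with high altitude in red and low altitude in blue, the goat given by the symbol, and the mean ± SD of 3 goats in black. miR-26a-5p ran from 48889 to 238925 RPM, and the altitudes separate in heart and, in the opposite order, in liver. Of miRNAs averaging at least 10 RPM in the tissue, 34.7% in heart and 20.8% in liver separate the altitudes in either direction.

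On the RPM scale, the order of miR-26a-5p from the highest tissue was lung with 173832 ± 35028 RPM (mean ± SD, n = 6), liver with 163862 ± 28505, heart with 113927 ± 16328, spleen with 94563 ± 29451, kidney with 91865 ± 29426 and muscle with 90500 ± 23161. Lung and liver were not separated by an exact permutation test on log2(RPM + 1), with a difference in liver of -0.08 on the log2 scale (two-sided, adjusted over the 15 pairs of tissues, p = 0.752). Heart, spleen, kidney and muscle were likewise not separated from each other, with adjusted p from 0.115 to 0.985 in exact permutation tests. Each of lung and liver was above each of the other 4 tissues, which makes 8 of 15 pairs with adjusted p from 0.00649 to 0.0122 in exact permutation tests. For lung over muscle the difference was 0.96 on the log2 scale and held in 6 of 6 goats. For liver over heart it was 0.52 and held in 5 of 6 goats. When the tissues were paired by goat (replicate block), none of the 15 pairs passed, and the adjusted p of the exact sign-flip test was 0.0670 for 7 of the 8, where 6 goats allow no p below 0.0312 before adjustment.

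This order belongs to shares of the library and changed with the scaling. TMM, the edgeR scaling that equalizes the bulk of miRNAs between libraries, had median factors from 0.536 in muscle to 1.48 in lung. On TMM-scaled totals, miR-26a-5p was highest in muscle, with 167447 ± 77426 (SD, n = 6), and heart, with 148176 ± 22399, and lowest in spleen, with 69853 ± 15611. Lung had 127738 ± 31424, liver 126854 ± 21379 and kidney 94069 ± 18797 on that scale. Muscle thus moved from the bottom to the top of the order, while lung over spleen and liver over spleen stayed among the differing pairs, of which there were 5 (adjusted p from 0.00812 to 0.0325, exact permutation tests). The rank of muscle also rests on miR-133a-3p and miR-133b-5p, 2 abundant muscle miRNAs that carry identical counts in every library. If their reads were counted 2 times, RPM is too low in muscle and heart. With the pair counted once, an alternative chosen after seeing the data, miR-26a-5p was at 118163 ± 27521 in muscle and 129927 ± 17567 in heart, so that kidney was lowest with 91911 ± 29440. All 8 pairs still passed and heart over spleen passed as well (adjusted p = 0.0446, exact permutation test), but the altitudes overlapped in heart. A total without each library's most abundant miRNA does not settle the order, because that miRNA was miR-26a-5p itself in 4 libraries, of heart, liver and lung.

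**Figure D2:**
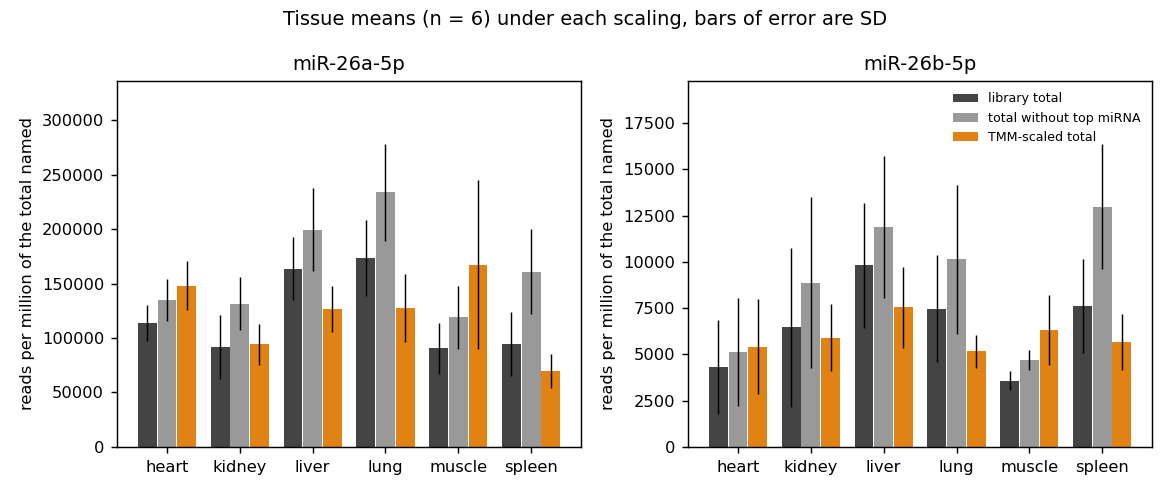
Mean scaled reads in each tissue (bars, n = 6 libraries, error bars SD) of miR-26a-5p (left) and miR-26b-5p (right) on the library total, on the total without the most abundant miRNA (miR-26a-5p itself in 4 libraries), and on the TMM-scaled total. For miR-26a-5p, muscle is lowest on the library total (90500) and highest on the TMM-scaled total (167447).

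Across all 1391 miRNAs, edgeR's quasi-likelihood F test for a difference between tissues, which uses TMM, called 39.3% of miRNAs (546), so a call is common. In the family it called 2 of 5 rows. miR-26a-5p had an adjusted p of 0.000971 in this edgeR test, and 0.000768 with the goat as a replicate block. Without low-altitude goat 2 its adjusted p was 0.0533. miR-26a-3p had an adjusted p of 0.0177, against 0.0778 with the block, 0.0658 with library size alone and 0.454 without high-altitude goat 2. miR-26b-5p was not called with TMM (adjusted p = 0.543) but was with library size alone (adjusted p = 0.00843), a scaling under which 40.1% of miRNAs were called. miR-26b-3p (adjusted p = 0.199) and conserve-miR-26b-5p (adjusted p = 0.0647) were not called by edgeR, and DESeq2 called miR-26b-3p with an adjusted p of 0.0171.

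miR-26a-5p varied little between tissues for so abundant a miRNA. Among the 20 miRNAs with the highest mean RPM it had the smallest ratio of highest to lowest tissue mean, 1.92-fold, and the smallest coefficient of variation over the 36 libraries, 35.7%. It kept the first place in both on TMM-scaled totals, with 2.40-fold and 39.2%. miR-143-3p, the only miRNA with a higher mean, ranged 13.4-fold between tissues, and miR-10b-5p, which came after it, 126-fold. The tissue specificity index (0 for equal levels, 1 for a single tissue) was 0.362 for miR-26a-5p, 0.400 for miR-26b-5p and 0.348 for miR-26b-3p, against a median of 0.696 over the 308 miRNAs averaging at least 10 RPM. Among those 308, 16 had a lower index than miR-26a-5p.

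miR-26a-5p was also the 1 miRNA that stood among the first 5 in all 36 libraries. It was the most abundant miRNA in 4 libraries, in place 2 in 17 and in places 3 to 5 in 15. By tissue mean it ranked first in liver. Only miR-143-3p, a smooth muscle miRNA, was above it in lung (233301 ± 66693 RPM, SD, n = 6) and spleen (420675 ± 74765 RPM). In heart, miR-133a-3p and miR-133b-5p (both 123717 ± 36264 RPM) and miR-143-3p (114022 ± 58255 RPM) were above it. In kidney these were miR-10b-5p (314594 ± 103758 RPM), miR-30a-5p (93544 ± 8732 RPM) and miR-10a-5p (93045 ± 27880 RPM). In muscle they were miR-133a-3p and miR-133b-5p (both 236115 ± 33372 RPM) and miR-10b-5p (103059 ± 57335 RPM). The gap to miR-26a-5p was smaller than the SD of the miRNA above it for miR-143-3p in lung, for miR-143-3p and both miR-133 rows in heart, for miR-30a-5p and miR-10a-5p in kidney, and for miR-10b-5p in muscle. miR-26b-5p ranked between 20 and 28 by tissue mean.

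miR-26b-5p, the paralog with the same seed, was 12 to 35 in rank within single libraries. In heart, the high-altitude goats 1, 2 and 3 had 4582, 9268 and 3471 RPM and the low-altitude goats 2720, 2869 and 2994 RPM. In spleen, the values were 7658, 11161 and 9979 RPM at high altitude and 6626, 4662 and 5629 RPM at low altitude. In both tissues every high-altitude goat was above every low-altitude goat. On TMM-scaled totals this held in spleen and was lost in heart (3631 to 10520 at high and 4088 to 4601 at low altitude). It held in liver as well (7726 to 10808 and 5499 to 6232). On the RPM scale, 34.7% of miRNAs averaging at least 10 RPM in heart, 24.6% in spleen and 20.8% in liver separated the altitudes in either direction. These shares were not counted on TMM-scaled totals.

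In liver, miR-26b-5p stood at 8340, 16377 and 10199 RPM in the high-altitude goats and at 7514, 9138 and 7381 RPM in the low-altitude goats. In lung, it stood at 4317, 11496 and 4167 RPM at high altitude and at 7227, 9668 and 7965 RPM at low altitude. The altitudes overlapped in both, and in lung goat 2 alone put a high-altitude value above the low-altitude ones. In kidney, the high-altitude goats had 4610, 10903 and 3047 RPM and the low-altitude goats 2846, 4509 and 12874 RPM. In muscle, the high-altitude goats had 3565, 3354 and 4263 RPM and the low-altitude goats 3503, 2775 and 4052 RPM. In kidney 1 goat of each population thus stood far above the other 2, and muscle had the narrowest range of any tissue.

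Ordered by mean RPM, miR-26b-5p was highest in liver (9825 ± 3378, SD, n = 6), then spleen (7619 ± 2522), lung (7473 ± 2905), kidney (6465 ± 4309), heart (4318 ± 2518) and muscle (3585 ± 528). No neighbours in this order differed in exact permutation tests, where adjusted p ran from 0.289 to 0.848. The pairs that passed were 4 of 15: liver over heart (adjusted p = 0.0406, exact permutation test), liver over muscle and spleen over muscle (both 0.0162) and lung over muscle (0.0216). Liver over muscle was the largest, at 1.41 on the log2 scale, and held in 6 of 6 goats. When a goat was left out, 0 to 5 pairs passed, and 0 in 4 of the 6 such runs. With the miR-133 pair counted once, only liver over muscle passed (adjusted p = 0.0325, exact permutation test). With the goats paired (replicate block) 0 pairs passed, with 0.0938 as the lowest adjusted p of the exact sign-flip test. On TMM-scaled totals 0 pairs passed as well, the lowest adjusted p of the exact permutation test was 0.422, and lung was lowest with 5166 ± 906. Liver stayed highest on these totals (7552 ± 2183), above heart and above spleen in 6 of 6 goats each. It was above lung in 5 of 6 goats and above muscle in 4 of 6, and kidney was above it in 1 of 6. On the total without the most abundant miRNA, spleen was highest (12988 against 11886 in liver). The log2 RPM of miR-26b-5p and the log2 TMM factor had a Pearson r of 0.818 over the 36 libraries. For miR-26a-5p it was 0.516. These libraries share goats and tissues, and the part of library composition in the level was not tested.

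The ratio of miR-26a-5p to miR-26b-5p within a library needs no scaling between libraries. It ran from 8.31 reads of miR-26a-5p for each read of miR-26b-5p, in liver of high-altitude goat 2, to 40.4, in heart of low-altitude goat 1. On the log2 scale, heart was highest with 4.86 ± 0.50 (SD, n = 6), followed by muscle with 4.63 ± 0.40, lung with 4.62 ± 0.46, liver with 4.10 ± 0.62, kidney with 4.03 ± 0.49 and spleen with 3.63 ± 0.27. Spleen was below heart, lung and muscle in 6 of 6 goats each, by 0.99 to 1.23, which were the 3 of 15 pairs that passed the exact permutation test (adjusted p = 0.0216 for each). No neighbours in the order differed, with adjusted p from 0.182 to 0.937 in exact permutation tests. Under the replicate block, with goats paired, 0 pairs passed. Leaving out high-altitude goat 1 or 3 or low-altitude goat 2 also left 0 pairs, where 5 goats allow no exact p below 0.00794.

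**Figure D3:**
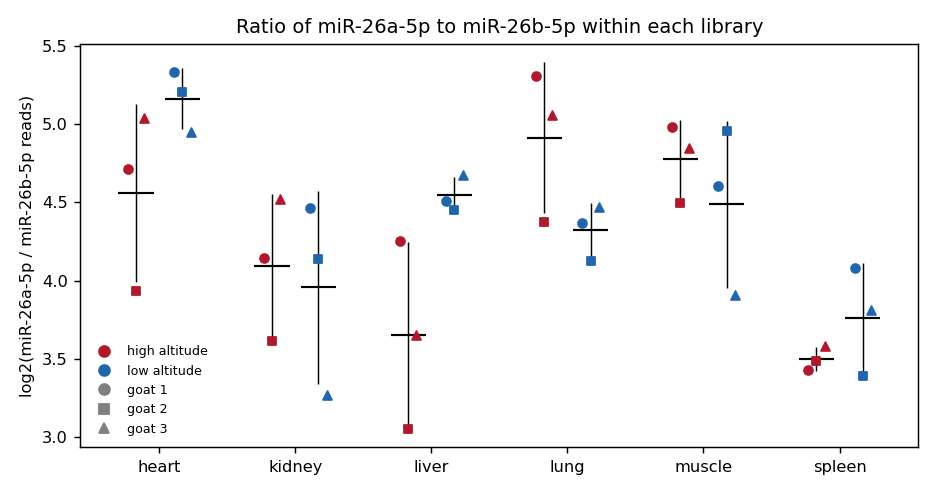
log2 of the ratio of miR-26a-5p to miR-26b-5p reads within each of the 36 libraries (vertical axis) by tissue, with high altitude in red, low altitude in blue, the goat given by the symbol and the mean ± SD of 3 goats in black. Spleen lies between 3.39 and 4.08, below the means of heart (4.86), muscle (4.63) and lung (4.62).

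In liver, the log2 ratio was 4.25, 3.05 and 3.65 in the high-altitude goats and 4.51, 4.45 and 4.68 in the low-altitude goats. The altitudes did not overlap, and the means differed by -0.89 (high minus low). An exact permutation test of 3 goats against 3 cannot give a p below 0.1, which is the value liver had (adjusted over the 6 tissues, 0.4). In heart the ratio of the high-altitude goats was 4.71, 3.93 and 5.04 and that of the low-altitude goats 5.33, 5.21 and 4.95. The difference was -0.60 with overlap (exact permutation p = 0.2). High-altitude goat 2 was lowest there, against 4.71 to 5.33 in the other libraries, and leaving it out was not tested. In lung the order was the other way, with 5.31, 4.38 and 5.06 in the high-altitude goats, 4.36, 4.13 and 4.47 in the low-altitude goats and a difference of 0.59 (exact permutation p = 0.2). Differences in the other tissues were 0.14 in kidney, 0.29 in muscle and -0.26 in spleen.

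For altitude, edgeR's quasi-likelihood test within each tissue called a miRNA when its adjusted p was below 0.05 and its log2 fold change reached 1.5 in either direction. It called 0% of the 1391 miRNAs in heart, kidney, liver and lung, 0.0719% in muscle and 0.144% in spleen. No row of the family was called in any tissue by edgeR, in 26 tests of rows with reads (conserve-miR-26b-5p had none in 4 tissues). Its unadjusted p was under 0.05 for 1 of the 26, miR-26b-5p in spleen, while 59 to 89 of all miRNAs reached that level in a tissue. Summed over the tissues, edgeR called 3 miRNAs and DESeq2 184.

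For miR-26a-5p, the log2 fold change of high over low altitude was 0.59 ± 0.48 (SE) in muscle, 0.40 ± 0.33 in spleen, 0.30 ± 0.34 in lung, 0.14 ± 0.32 in kidney, 0.11 ± 0.24 in heart and -0.26 ± 0.32 in liver. All are within about 1.5 SE of 0, and the edgeR adjusted p ran from 0.778 to 1. The sign in heart turned with low counts filtered out (-0.02) and in a single fit over all libraries (-0.15). It also turned there without high-altitude goat 2 (-0.11) and without low-altitude goat 3 (-0.11). The sign in kidney and in liver turned when a goat was left out as well. Leaving out single goats gave 0.30 to 0.90 in muscle and 0.21 to 0.66 in spleen. For miR-26b-5p, the log2 fold change was 0.87 ± 0.43 (SE) in heart, 0.70 ± 0.27 in spleen, 0.61 ± 0.30 in liver, 0.30 ± 0.37 in muscle, -0.02 ± 0.42 in kidney and -0.26 ± 0.37 in lung, with edgeR adjusted p from 0.726 to 1. The value in heart was 0.20 without high-altitude goat 2, and leaving out single goats gave 0.20 to 1.14 in heart, 0.64 to 0.80 in spleen, 0.58 to 0.73 in liver, 0.11 to 0.53 in muscle and -0.50 to -0.03 in lung. In kidney it gave -0.16 to 0.37, and the sign there also turned with RLE size factors (0.06), DESeq2 (0.06), the replicate block (0.03) and 1 fit over all libraries (0.03). DESeq2 gave miR-26b-5p an adjusted p of 0.00128 in spleen (log2 fold change 0.75) and 0.0418 in liver (0.69), both below the fold threshold of 1.5, and called 0 rows of the family. Scaling by library size alone moved the median log2 fold change of all miRNAs averaging at least 10 RPM by 0.17 in heart, -0.11 in liver, -0.14 in lung and -0.14 in muscle relative to TMM. On that scaling miR-26a-5p had 0.29 in heart, against a median of 0.18 for all, and -0.41 in liver, against -0.20.

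**Figure D4:**
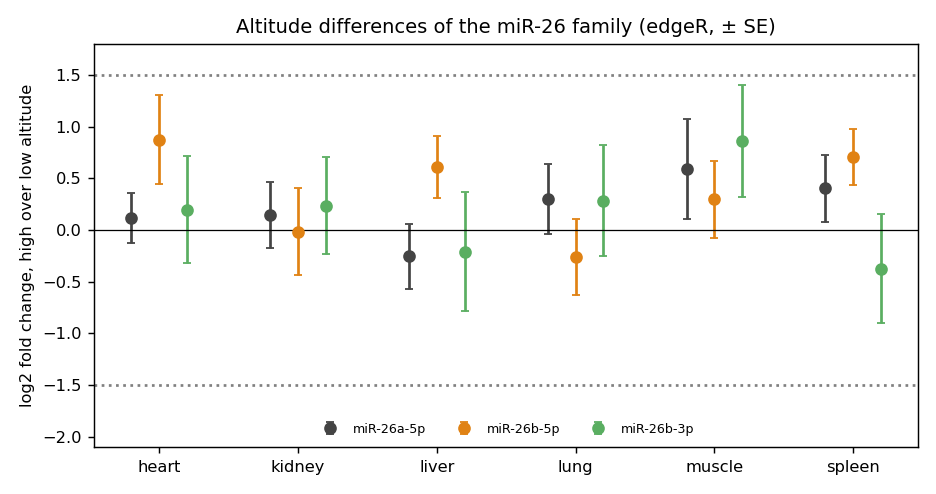
log2 fold change of high over low altitude (edgeR with TMM, 3 against 3 goats, bars of 1 SE) for miR-26a-5p, miR-26b-5p and miR-26b-3p in each tissue, with dotted lines at the threshold of 1.5 in either direction. No point reaches a dotted line, and the values run from -0.37 for miR-26b-3p in spleen to 0.87 for miR-26b-5p in heart.

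On the RPM scale the altitudes failed to overlap for miR-26a-5p in heart and liver and for miR-26b-5p in heart and spleen. Among miRNAs averaging at least 10 RPM in the tissue, the share without overlap in either direction was 34.7% in heart, 20.8% in liver and 24.6% in spleen, and it was 14.1% in kidney, 20.1% in lung and 27.3% in muscle. Lack of overlap was therefore common. Summed levels of marker miRNAs also separated the altitudes in several tissues, whether or not miR-26 did. The smooth muscle list (miR-143-3p and miR-145-5p, with miR-143-3p the most abundant) summed to 161973 ± 40158 RPM (SD, n = 3) in high-altitude and 67657 ± 8346 RPM in low-altitude heart, without overlap. The striated muscle list was at 222493 ± 34569 RPM in high-altitude and 274797 ± 15278 RPM in low-altitude muscle, without overlap. Rare miRNAs separated the altitudes too, with the airway list at 9.31 RPM at high and 2.54 RPM at low altitude in heart and at 34.97 and 8.03 RPM in spleen, and the heart list at 234 and 59.3 RPM in liver. High altitude was also above low for the heart list in kidney and lung and the airway list in kidney. The liver list in lung and the striated muscle list in kidney had the same direction. Why these separations ran the same way was not tested. In spleen the smooth muscle list had 374730 ± 22954 RPM at high and 473530 ± 80115 RPM at low altitude, also without overlap. That list separated the altitudes in lung (185663 ± 58693 RPM at high and 285335 ± 19026 RPM at low altitude) and muscle (43109 ± 17529 RPM at high and 20220 ± 2541 RPM at low altitude) too, where miR-26a-5p and miR-26b-5p overlapped. The leukocyte list had 2710 ± 779 RPM in high-altitude and 1744 ± 218 RPM in low-altitude heart, without overlap. In liver the sum of miR-486-5p, miR-144-3p and miR-144-5p, listed for erythrocytes, was 3669 ± 3065 RPM at high and 9234 ± 661 RPM at low altitude. Most of it was miR-486-5p, which was highest in muscle (22874 RPM) and heart (22401 RPM), so the sum does not measure erythrocytes alone. The part of cell composition in the miR-26 values was not tested.

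The test for a different altitude effect between tissues (5 degrees of freedom, edgeR) called 0.216% of the 1391 miRNAs, which is 3. No miR-26 row was among them, and the edgeR adjusted p was 1 for each of the 5. Averaged over the 6 tissues of a goat, log2(RPM + 1) of miR-26a-5p was 16.83, 17.03 and 16.79 in the high-altitude goats and 16.74, 16.65 and 16.75 in the low-altitude goats. Every high-altitude mean was above every low-altitude mean, by 0.17 on average, with p = 0.1, the smallest an exact permutation of 3 against 3 goats can give. The share of miRNAs whose goat means separate was not counted. Within single tissues, 14.1% to 34.7% of miRNAs averaging at least 10 RPM separated the altitudes on the RPM scale. On TMM-scaled totals the difference of the goat means of miR-26a-5p was 0.22 (exact permutation p = 0.2), with overlap. With the miR-133 pair counted once it was 0.15 (exact permutation p = 0.2). Without high-altitude goat 2 it was 0.09 on the RPM scale. For miR-26b-5p the goat means were 12.36, 13.21 and 12.34 against 12.17, 12.27 and 12.58, which overlapped (difference 0.29, exact permutation p = 0.5).

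High-altitude goat 2 stood apart in miR-26b-5p. It had the highest level of its population in 5 of 6 tissues, and the lowest ratio of miR-26a-5p to miR-26b-5p in 5 of 6. The same held for the level of 27.6% of the 308 miRNAs averaging at least 10 RPM, so this was not particular to miR-26b-5p. Without this goat the difference of miR-26b-5p between altitudes was 0.00 on the log2 scale, against 0.29 with it. On TMM-scaled totals the difference was 0.34 with all goats, without overlap (exact permutation p = 0.1). The share of all miRNAs whose goat means separate on that scale was not counted.

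The 3p arms, the strands of the hairpin that are mostly degraded, were rare. miR-26b-3p, with 72 to 420 counts in a library, had 22.7 ± 7.94 RPM (SD, n = 6) in lung, 22.1 ± 7.71 in liver, 13.7 ± 9.51 in muscle, 13.6 ± 4.52 in spleen, 13.3 ± 6.06 in heart and 11.2 ± 2.67 in kidney. These levels overlap between tissues. The 5p arm of miR-26b had 102 to 1255 reads for each read of the 3p arm. miR-26b-3p did not follow its own 5p arm closely, with a Pearson r of 0.249 for log2(RPM + 1) over the 36 libraries. It was 0.588 for miR-26a-5p with miR-26b-5p and 0.519 for miR-26a-5p with miR-26b-3p.

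miR-26a-3p had 0 to 37 counts in 35 libraries and 178 counts, or 14.0 RPM, in muscle of high-altitude goat 2. The 3 libraries at 0 were heart of high-altitude goat 2, kidney of low-altitude goat 1 and lung of low-altitude goat 3, where 3 counts would be 0.242, 0.304 and 0.295 RPM. The other 5 muscle libraries had 0.235 to 0.890 RPM. In the same muscle library miR-26b-3p was at 32.9 RPM, against 7.69 to 11.6 RPM in the other 5, while miR-26a-5p and miR-26b-5p lay within the range of the other muscle libraries. The log2 fold change of miR-26a-3p in muscle was 2.97 ± 1.54 (SE, edgeR adjusted p = 0.786) with this library and -0.44 without that goat. In liver miR-26a-3p had 31, 37 and 6 counts at high and 9, 6 and 1 counts at low altitude, where high-altitude goat 3 (0.655 RPM) was below low-altitude goats 1 and 2 (1.04 and 0.844 RPM; log2 fold change 2.11 ± 1.21, edgeR adjusted p = 0.726).

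conserve-miR-26b-5p, the row named after another species, had 7 counts in muscle of high-altitude goat 2, 3 in that of goat 3, 3 in muscle of low-altitude goat 1 and 1 in kidney of low-altitude goat 1. It was at 0 in the other 32 libraries. How reads that fit several rows of the family were assigned is not stated in the files, and the likeness of the rows was not checked, since no mature sequences were at hand.

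The miRNAs most like each member were those with the highest Pearson r of log2(RPM + 1) over the 36 libraries among miRNAs averaging at least 10 RPM. For miR-26a-5p these were miR-151-5p (r = 0.723), miR-148a-5p (0.679), miR-361-3p (0.666), miR-151-3p (0.658) and miR-148a-3p (0.654). For miR-26b-5p they were miR-98-3p (r = 0.866), miR-28-5p (0.821), miR-199a-3p (0.807), miR-148b-3p (0.791) and miR-374a-5p (0.790). For miR-26b-3p they were let-7c-5p (r = 0.611), miR-214-3p (0.586), let-7d-5p (0.578), miR-151-3p (0.565) and miR-320-3p (0.544). The closest partners of miR-26b-5p were lowest in muscle or, for miR-199a-3p, in heart, the tissues in which miR-26b-5p was lowest too. The libraries share goats, tissues and library totals, so these coefficients are descriptive.

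Other miRNAs linked to hypoxia in cultured cells together with miR-26 were followed as a list of 12, of which 10 were present. No listed miRNA was called in either direction in any tissue by edgeR or DESeq2, which called 3 and 184 miRNAs summed over the tissues. Before adjustment, the edgeR p was under 0.05 for 86 of 1391 miRNAs in muscle, 89 in heart and 66 in lung. It was so for 80 in spleen, 64 in kidney and 59 in liver. Of the listed miRNAs, it was under 0.05 for 2 in muscle, 1 each in heart, lung and spleen, and 0 in kidney and liver. Of those averaging at least 10 RPM, the median log2 fold change of high over low altitude was 0.04 in muscle, -0.01 in liver, -0.06 in lung, -0.12 in spleen, -0.16 in heart and -0.48 in kidney. The medians of all such miRNAs were 0.10, -0.09, -0.05, 0.05, 0.02 and -0.08 in the same order of tissues. With only those read in all 6 libraries of a tissue, chosen after seeing the data, the list had 0.14 in muscle, 0.08 in liver and -0.39 in kidney and was unchanged elsewhere. Among those read in all 6 libraries of a tissue, the largest change was that of miR-24-3p in spleen, -1.47 ± 0.52 (SE, edgeR adjusted p = 0.729), with 678 RPM at high and 1715 RPM at low altitude. This miRNA also had -1.11 ± 0.53 in kidney, -1.09 ± 0.29 in heart and -1.02 ± 0.52 in liver. Its values were 0.25 ± 0.40 in lung and 0.03 ± 0.69 in muscle. miR-210-3p, the best known hypoxia-induced miRNA, was listed at 0 in 5 of 6 libraries in each of heart, muscle and spleen, in 3 of 6 in lung and in 2 of 6 in kidney and in liver, and averaged 20.5 RPM in lung, its highest tissue. In heart, muscle and spleen the only library with reads was a high-altitude one, with high-altitude means of 2.55, 2.17 and 4.84 RPM. The mean of miR-210-3p in liver was 12.3 RPM at high and 6.71 RPM at low altitude. In lung (17.0 and 23.9 RPM) and kidney (16.6 and 20.8 RPM) the low-altitude mean was the higher.

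Other miRNAs known to repress EZH2, as miR-26a does, formed a list of 9, of which 6 were present in 7 rows. None was called between altitudes in either direction by edgeR or by DESeq2. Before adjustment, the edgeR p was under 0.05 in lung for 66 of all 1391 miRNAs and 2 listed rows. In muscle these numbers were 86 and 1. In the other tissues they were 59 to 89 of all miRNAs and 0 of the listed rows. Their median log2 fold changes, over 4 or 5 rows averaging at least 10 RPM, were 0.50 in muscle, 0.45 in liver, 0.39 in heart, -0.21 in kidney, -0.30 in spleen and -0.76 in lung, beside the medians of all miRNAs given above. Restricted to the 3 or 4 rows read in all 6 libraries of a tissue, a choice made after seeing the data that leaves out let-7a-5p except in kidney, they were 0.22 in muscle, 0.09 in liver, 0.09 in heart, -0.21 in kidney, -0.10 in spleen and -0.64 in lung. The medians of all miRNAs so restricted were 0.07, -0.10, 0.04, -0.11, 0.04 and -0.03. miR-101-3p had 0.90 ± 0.36 (SE) in muscle, with 6149 RPM at high and 3362 RPM at low altitude (edgeR adjusted p = 0.746). In lung it went the other way, with -0.52 ± 0.36 (edgeR adjusted p = 0.854), and elsewhere it had 0.11 to 0.81. miR-138-5p had -1.39 ± 0.49 in lung (edgeR adjusted p = 0.832). let-7a-5p was listed at 0 in some libraries of every tissue but kidney, and abundant in others, and its fitted change is not given.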

How the data were processed

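The authors deposited, for each library, the read count of 1391 mature miRNAs, without normalization; RPM and log2 values were computed here. According to their methods and the labels, base calling used CASAVA 1.8, and reads were mapped with Bowtie without mismatches to the goat assembly ARS1 and quantified with miRDeep2 against miRBase. Sequences and raw totals were not used here. Totals are sums of these counts. Tests across miRNAs used edgeR 4.0.16 in R 4.3.3 (TMM, glmQLFit, glmQLFTest, Benjamini-Hochberg over all miRNAs), 1 fit per tissue for altitude and 1 fit over 12 groups for tissue and interaction. Levels used two-sided exact permutation tests on log2(RPM + 1) in Python 3.11.15 with SciPy 1.17.1. The functions were tested on simulated data or cases with known answers. Alternatives were DESeq2 1.42.0, RLE size factors, library size only, filterByExpr, other totals (including the identical miR-133 pair counted once, chosen after seeing the data), a pseudocount of 0.1, 1 fit over all libraries, a replicate block and each goat left out.

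The tissues of a goat share its number in the labels, and the study took all tissues from each animal. Deviations from the group means over 217 miRNAs correlated between tissues of a goat with a mean r of 0.0656 to 0.337. A number shared by the 2 populations does not pair their goats. No libraries of a group were identical. Named miRNAs are all members, the 5 most correlated with each member averaging at least 10 RPM, those ranking above miR-26a-5p in a tissue, 2 lists and the markers of tissues and cell types fixed beforehand, of which those in the text were chosen after their values were seen. Members and lists were chosen with earlier results of these data known.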

Additional observations from a re-analysis of the deposited data

Results flagged for a closer look

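Of 30 sets of 6 libraries of a tissue, made for the level of 4 members and the ratio of miR-26a-5p to miR-26b-5p, 4 had a library far from the other 5, where chance gives about 1 in 20. All 4 belong to high-altitude goat 2. miR-26b-5p was at 9268 RPM in its heart, against 2720 to 4582 RPM in the other 5 libraries, and at 16377 RPM in its liver, against 7381 to 10199 RPM. In its muscle, miR-26b-3p was at 32.9 RPM, against 7.69 to 11.6 RPM, and miR-26a-3p at 14.0 RPM, against 0.235 to 0.890 RPM. TMM factors of this goat were the highest of its population in kidney, liver, lung and muscle and not in heart or spleen, and the part of library composition was not tested.

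For miR-26a-5p, every high-altitude goat was above every low-altitude goat in heart, where the ratio of mean RPM was 1.22, and below in liver, where it was 0.755. Of miRNAs averaging at least 10 RPM in the tissue, 34.7% in heart and 20.8% in liver separated the altitudes in either direction on the RPM scale. The separations of miR-26a-5p hold on the RPM scale: on TMM-scaled totals the altitudes overlapped in both tissues, and the ratio in heart was 0.902. The fitted log2 fold change in heart was -0.02 with filterByExpr and -0.15 with 1 fit. Without high-altitude goat 2 it was -0.11 in heart and 0.02 in liver. Without low-altitude goat 3 it was -0.11 in heart. This pair of tissues was not tested on its own. The test over all 6 tissues did not call a difference in the altitude effect (edgeR adjusted p = 1).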

How the results depend on the processing

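No miR-26 row was called between altitudes or for the interaction under any alternative. The tissue test called 2 of 5 members, 1 with the replicate block (goat) and 0 to 2 in leave-one-out. For the 2 main 5p members 12 pairs of tissues were called, against 0 with the replicate block (goats paired) and 5 on TMM-scaled totals, of which 2 were among the 12 and 3 were new. For their ratio 3 pairs were called, against 0 with the block and 0 to 6 in leave-one-out, where up to 3 were new. The ratio averaged over tissues differed by -0.23 to 0.088 in leave-one-out. The log2 fold change of miR-26a-5p in heart was -0.017 with filterByExpr and -0.15 with 1 fit over all libraries. That of miR-26b-5p in kidney was 0.059 with RLE size factors, 0.059 with DESeq2, 0.031 with the replicate block and 0.034 with 1 fit, and that of miR-26b-3p in heart -0.051 with 1 fit. In leave-one-out, miR-26a-5p had -0.11 to 0.20 in heart, -0.013 to 0.34 in kidney and -0.43 to 0.019 in liver, miR-26b-5p -0.16 to 0.37 in kidney, miR-26b-3p -0.25 to 0.44 in heart, -0.0013 to 0.46 in kidney and -0.53 to 0.21 in liver, and miR-26a-3p -1.55 to 0.62 in kidney, -0.44 to 3.51 in muscle and -0.19 to 0.77 in spleen. Mean miR-26a-5p on TMM-scaled totals was 148176 in heart, 126854 in liver, 127738 in lung and 167447 in muscle. On the total without the most abundant miRNA, which was miR-26a-5p itself in 4 libraries of heart, liver and lung and raises its own level there, it was 233934 in lung, 199598 in liver, 160863 in spleen, 135115 in heart, 131692 in kidney and 118938 in muscle. miR-26b-5p was at 6330 in muscle with TMM. Without the most abundant miRNA it was at 4705 in muscle and highest in spleen, with 12988 against 11886 in liver. With the identical miR-133 pair counted once, chosen after seeing the data, the muscle means were 118163 and 4678. The high over low ratio of miR-26a-5p in heart was 0.902 on TMM-scaled totals, and that of miR-26b-5p in kidney 1.02. The cause was not tested. Over all miRNAs, altitude calls summed to 3, with 18 by filterByExpr, 184 by DESeq2, 54 with 1 fit, 0 with the block and 0 to 12 in leave-one-out. This altitude block is the label number, which pairs no goats between populations, so it is no paired analysis. Interaction calls came to 3, with 5 by filterByExpr, 49 by DESeq2 and 0 to 10 in leave-one-out. With 3 goats a population, smaller differences may have been missed, and counts do not tell paralogs, precursors and mature ends apart beyond their names.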
